A study of Mus musculus with 16 samples.

Results

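The comparison set progenitor cells of the mouse heart against cardiomyocytes, the contracting muscle cells of the same organ. The progenitor side was the equal-weight mean of 3 groups, heart c-kit cells (3 arrays), heart Sca1 cells (3 arrays) and cardiac side population (SP) cells (2 arrays), and the other side was the 2 control cardiomyocyte arrays. These 10 arrays are part of a series of 16, which also holds bone marrow c-kit cells (3 arrays) and bone marrow mesenchymal stem cells (3 arrays) that were normalised with the others and entered the fit for its shared estimate of spread. Of 17710 genes measured, 7247 differed from cardiomyocytes with the same sign in all 3 progenitor groups, 3894 of them above (22.0% of all genes) and 3353 below (18.9%). With array medians aligned in place of quantile normalisation the split moved to 6756 above and 1335 below.

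All groups were C57BL/6 mice with the genotype given as Normal. Heart c-kit cells were sorted for c-kit. Heart Sca1 cells were sorted as positive for Sca1 and negative for CD45 and CD31, the surface proteins of leukocytes and of endothelium. Cardiac SP cells were taken by their efflux of a Hoechst dye, and the cardiomyocytes by a spin of 1 min at 100 rpm, with no sort for a marker in the labels. The labels of all groups give Matrigel-coated dishes and mTeSR medium as growth conditions, and no age, sex or animal number. Nothing in them says that replicates came from separate animals, so the p-values speak only of variation between arrays, part or all of which may be technical.

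Progenitor populations of the adult heart are small fractions of the cells that lie between the muscle fibres, isolated by a receptor (c-kit, the receptor of stem cell factor), a surface antigen (Sca1) or the export of a dye (side population). Cardiomyocytes make up most of the volume of the organ and carry the sarcomere, the calcium cycling system of the sarcoplasmic reticulum and the channels of excitation. Between them lie capillary endothelium, fibroblasts, pericytes, smooth muscle and resident macrophages. In bulk samples such as these, fewer cells of a type and less RNA per cell cannot be told apart.

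Sequences around the start sites of 4 genes are shown because the results turn on both kinds of gene, secreted or redox genes that were higher in progenitors and muscle genes that were lower. Each window runs from 250 bases before to 50 bases after the start site, 5′ to 3′ on the gene's strand, from RefSeq (GRCm38.p6). Srxn1 is at chr2:152105274-152105573 (plus strand), Lif at chr11:4257318-4257617 (plus), Actc1 at chr2:114052826-114053125 (minus) and Nppa at chr4:148000472-148000771 (plus). Capitals mark matches to the AP-1 site TGANTCA and the antioxidant response element TGACNNNGC in the first pair, and to TATAAA and the CArG box in the second pair, on either strand.
Srxn1: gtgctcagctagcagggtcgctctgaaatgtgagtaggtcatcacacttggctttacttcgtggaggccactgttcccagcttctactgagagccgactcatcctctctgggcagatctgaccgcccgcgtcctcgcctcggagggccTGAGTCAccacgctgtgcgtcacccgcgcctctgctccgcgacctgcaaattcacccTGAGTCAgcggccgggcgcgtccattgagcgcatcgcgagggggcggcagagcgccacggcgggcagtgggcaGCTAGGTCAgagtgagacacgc
Lif: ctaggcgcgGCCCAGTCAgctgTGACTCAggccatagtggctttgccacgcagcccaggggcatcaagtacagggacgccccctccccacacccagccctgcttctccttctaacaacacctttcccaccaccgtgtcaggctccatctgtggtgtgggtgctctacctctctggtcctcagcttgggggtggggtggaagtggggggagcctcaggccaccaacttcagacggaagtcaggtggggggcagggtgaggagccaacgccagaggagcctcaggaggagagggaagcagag
Actc1: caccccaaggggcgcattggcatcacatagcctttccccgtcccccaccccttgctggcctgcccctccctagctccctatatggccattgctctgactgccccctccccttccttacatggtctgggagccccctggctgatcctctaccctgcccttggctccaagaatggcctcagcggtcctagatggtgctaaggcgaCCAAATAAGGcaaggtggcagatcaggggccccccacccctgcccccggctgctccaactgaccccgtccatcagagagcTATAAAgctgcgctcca
Nppa: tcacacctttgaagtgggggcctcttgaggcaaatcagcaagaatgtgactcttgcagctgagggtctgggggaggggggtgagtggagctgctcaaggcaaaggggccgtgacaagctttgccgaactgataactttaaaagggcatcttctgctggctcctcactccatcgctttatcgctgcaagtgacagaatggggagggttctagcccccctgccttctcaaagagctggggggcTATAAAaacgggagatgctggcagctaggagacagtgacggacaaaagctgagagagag
In the Srxn1 window lay 2 matches to the AP-1 site and 1 to the antioxidant response element, and in the Lif window 1 of each. The Actc1 window held 1 CArG box and 1 TATAAA, and the Nppa window 1 TATAAA. The Actc1 TATAAA began at base 34 and the Srxn1 antioxidant response element at base 29 counted from the start site, so both lay downstream of it. Over all 32851 RefSeq windows of this length, 7.81% held the AP-1 site, 12.4% the antioxidant response element, 13.6% TATAAA, 1.63% the CArG box and 3.19% the MEF2 site. Of the 27 windows of genes higher in progenitors, 3 held the AP-1 site, 5 the antioxidant response element, 4 TATAAA, 1 the CArG box and 0 the MEF2 site. Of the 102 windows of genes lower in progenitors, 8, 11, 14, 4 and 2 held them in the same order. These are counts of windows: the 27 belong to 20 higher genes and the 102 to 74 lower genes. Some genes have several windows that overlap, and Hmox1, Ereg and Sln have none. Among the 17303 windows of genes on the arrays the shares were 6.48%, 13.5%, 10.3%, 1.38% and 2.31%. The AP-1 site and the antioxidant response element can overlap each other, and a match is a description of the letters only.

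Levels are log2 values after quantile normalisation, centred near 0 on each array, so a negative level is a low signal and not a difference. On each array 1 repeated value, the fill value, stood at 3.38% to 13.8% of probes. It lies near the low end of the values, but on most of these arrays some values were lower, so it marks a low signal and not a strict floor. Intensities were recovered from the deposited values by undoing the log2 and a constant per array. Their median was 15 and 22 on the cardiac SP arrays and 18 to 121 on the heart c-kit arrays, against 100 to 109 on the heart Sca1 arrays and 99 and 200 on the cardiomyocyte arrays. The SP arrays and 1 heart c-kit array were the dimmest of the 10.

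The labelled cell types were read against marker lists first. The 14 measured sarcomere genes had a mean level of 4.95 and 5.05 on the cardiomyocyte arrays and of 0.18 to 2.20 on the progenitor arrays. The cardiomyocyte arrays also carried the markers of other heart cells: the mean of 27 endothelial genes was 6.26 and 6.48 there against 1.85 to 5.27 on progenitor arrays, and no member stood at the fill value on a cardiomyocyte array. The mean of 20 macrophage and leukocyte genes was 3.60 and 4.09 against -0.96 to 2.94, and that of 11 smooth muscle and pericyte genes 4.23 and 4.60 against 0.88 to 3.24. Fibroblast and matrix genes overlapped, at 4.68 and 5.23 on cardiomyocyte arrays and 1.66 to 6.69 on progenitor arrays. Heart Sca1 replicate 3 stood apart within its group: its endothelial mean was 5.19 against 1.85 and 2.54, and its macrophage mean 2.94 against -0.14 on each of the other arrays.

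**Figure D1:**
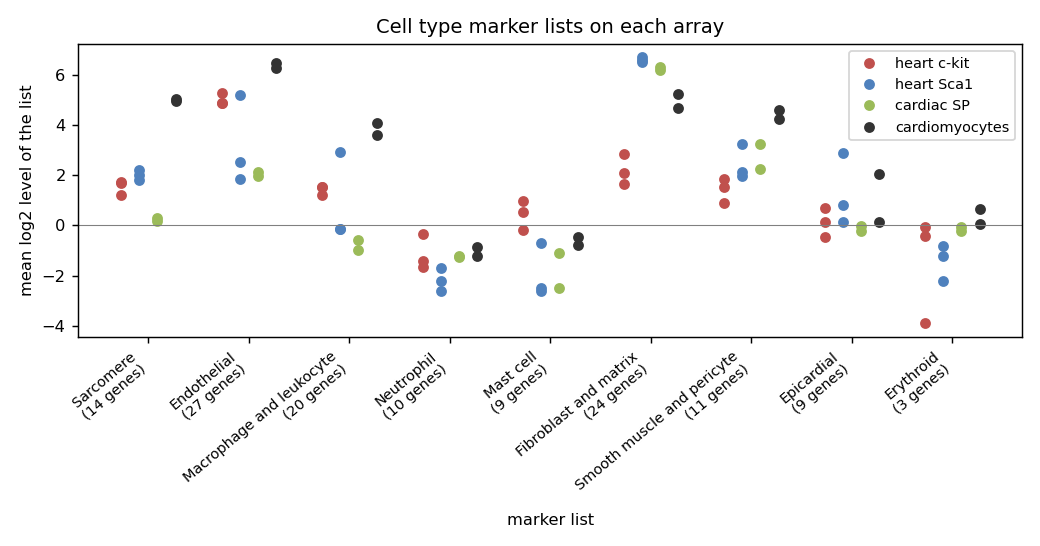
Mean log2 level of each cell type marker list on each of the 10 arrays (y axis), by list (x axis, with the number of measured genes); a point is 1 array, coloured by group. The cardiomyocyte arrays lie above all progenitor arrays in the sarcomere, endothelial, macrophage and smooth muscle lists and among them in the fibroblast list.

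The pooled test compared the mean of the 3 progenitor groups with cardiomyocytes, the contrast of progenitor with muscle cell. Genes are called here where limma's p, adjusted by Benjamini-Hochberg over the whole table, was under 0.05. There were 120 such genes among 17710 (0.678%), of which 24 were higher (0.136%) and 96 lower (0.542%) in progenitors. At an unadjusted p under 0.05 there were 2097 genes (11.8%), 5.65% of all genes higher and 6.19% lower. All 24 higher genes and 88 of the 96 lower genes had the same sign in all 3 groups, and in 21 and 72 of the 24 and 96 no progenitor array overlapped a cardiomyocyte array. The lower side depended on the scaling: 22 lower genes had no overlap and 69 had the same sign in all 3 groups with array medians aligned, and 40 and 73 with the deposited values unchanged, while of the higher genes 20 and 19 had no overlap. Over all genes, the 8 progenitor arrays lay above both cardiomyocyte arrays in 2.42% of genes and below both in 2.86%. The called genes were picked for a large difference relative to spread on these same arrays. Their counts of like sign and of no overlap therefore follow in part from the call and are not further support for it.

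These calls rest on both cardiomyocyte arrays and on the marrow arrays that share the spread. Without cardiomyocyte replicate 1 limma called 1 gene, which was not among the 120, and without replicate 2 it called 2, of which 1 was among them, Sln (adjusted p = 0.0248). With only the 10 compared arrays in the fit limma called 0 genes (1428 at an unadjusted p under 0.05). With array medians aligned in place of quantile normalisation it also called 0 (3604 at an unadjusted p under 0.05) and the median of all genes moved from 0.02 to 0.79, while all 24 and 96 pooled differences kept their sign and their side of that median. The count was also 183 without heart c-kit replicate 1, 52, 46 and 238 without heart Sca1 replicates 1, 2 and 3, and 219 and 240 without cardiac SP replicates 1 and 2. Among the genes named below, the calls of Acta2, Akr1b8, Car4, Ccl2, Cmc2, Dtx3l, Lif, Lmo7, Lrg1, Mcub, Mfng, Mgst1, Por, Ptprb, Srxn1, Svs3a and Trmt10c were lost both without heart Sca1 replicate 1 and without replicate 2. That of Taf9-ps was lost without replicate 1, and those of Kcnj5, Klhl13, Laptm5 and Ptprr without replicate 2. Of the heart c-kit arrays, replicate 1 was needed for the call of Lmo7, replicate 2 for Ccl2, Gja5, Laptm5 and Por, and replicate 3 for Ccl2, Kcnj5, Laptm5, Lmo7, Mfng and Por, while cardiac SP replicate 2 was needed for Laptm5 and Mfng.

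Secreted signals and inhibitors formed the first group of higher genes. Timp1, Lif, Ereg and Ccl2, which encode a protease inhibitor, a cytokine, a growth factor and a chemokine, rose in progenitors, and each was the 1 called member of its list. Their relatives with the same kind of activity did not pass, and several stood on the other side of 0. The 15 highest and 15 lowest genes described here and below were chosen with no overlap of arrays as a condition. Their separation from the cardiomyocyte arrays is therefore not a further result.

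Timp1 encodes a secreted inhibitor of matrix metalloproteinases. It stood at 5.16, 3.18 and 5.75 on the heart c-kit arrays, 2.68, 4.21 and 3.36 on the heart Sca1 arrays, 6.25 and 6.29 on the cardiac SP arrays, and -1.53 and 0.68 on the cardiomyocyte arrays. Every progenitor array was above both cardiomyocyte arrays, and the SP arrays were the highest. The pooled log2 difference was 5.21 ± 0.77 (SE; limma adjusted p = 0.0201), which is 37.1-fold on the linear scale. By group it was 5.11 ± 0.89 for heart c-kit, 3.84 ± 0.89 for heart Sca1 and 6.69 ± 0.98 for cardiac SP cells, all against the same 2 cardiomyocyte arrays. In recovered intensity Timp1 read 397 to 6786 on progenitor arrays and 56 and 305 on the cardiomyocyte arrays.

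Among the 23 measured genes of the TIMP and metalloproteinase list, Timp1 was the 1 gene called (0.136% of all genes were called higher). The median difference of the list was 0.00 against 0.02 over all genes (0.55 above the median of all genes with medians aligned). The other TIMP genes did not follow it. Timp4, the inhibitor best known from heart muscle, was 2.02 and 3.98 on the cardiomyocyte arrays and -4.86 to 1.48 on the progenitor arrays. Its difference was -5.50 ± 1.28 (adjusted p = 0.0713), so the 2 genes stood at opposite ends of the list. Timp2 and Timp3 had mixed signs: heart c-kit cells were at -4.40 ± 0.72 and -3.52 ± 0.68 from cardiomyocytes, heart Sca1 cells at 1.81 ± 0.72 and 0.20 ± 0.68. Timp3 was near the scanner ceiling on 4 progenitor arrays and 1 cardiomyocyte array, and Timp2 on 1 progenitor array, so those levels are lower bounds. Among proteases, Mmp3 (stromelysin) was above both cardiomyocyte arrays on all 8 progenitor arrays, with a difference of 3.08 ± 1.09 (adjusted p = 0.256). Mmp2, a gelatinase, was at 1.10 ± 0.77 and Mmp14, a membrane-bound metalloproteinase, at 1.03 ± 0.46, and neither passed.

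Lif encodes leukemia inhibitory factor, a cytokine of the interleukin 6 family. Its levels were 1.07, 2.34 and 2.25 in heart c-kit cells, -0.76, 0.03 and -0.13 in heart Sca1 cells, 2.44 and 3.41 in cardiac SP cells, and -3.77 and -2.12 in cardiomyocytes. No progenitor array overlapped the cardiomyocyte arrays, and heart Sca1 cells lay nearest to them. The pooled difference was 4.45 ± 0.88 (SE; limma adjusted p = 0.0377), or 21.8-fold, with 4.83 ± 1.01, 2.66 ± 1.01 and 5.86 ± 1.11 in heart c-kit, heart Sca1 and cardiac SP cells. The signal was low throughout, at 11 and 65 intensity units on the cardiomyocyte arrays and 58 to 502 on progenitor arrays.

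Of the 19 measured genes of the interleukin 6 family list, 1 was called (0.136% of all genes were called higher). The list's median was -0.15 (0.03 above the median of all genes with medians aligned). The receptor of the cytokine, Lifr, was lower on all 8 progenitor arrays than on both cardiomyocyte arrays (4.45 and 4.66), at -2.33 ± 0.78 (adjusted p = 0.225), a difference opposite in sign to that of its ligand. The shared signalling receptor Il6st (gp130) was at -0.04 ± 0.46. Il6 itself was at -5.67 ± 1.83 in heart c-kit cells and 1.41 ± 1.83 in heart Sca1 cells, with a pooled value of -1.24 ± 1.59. Il11, another ligand of gp130, was at 2.03 ± 1.26, and Osm, oncostatin M, at -1.47 ± 0.93. Downstream, Stat3 was at 0.14 ± 0.61, and Socs3, a feedback inhibitor of this pathway, at -2.15 ± 0.93 (adjusted p = 0.384).

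Ereg encodes epiregulin, a ligand of the EGF receptor. It was 6.09, 3.93 and 5.56 in heart c-kit cells, 0.90, 2.05 and 1.14 in heart Sca1 cells, 4.20 and 4.53 in cardiac SP cells, and -0.41 and 0.10 in cardiomyocytes. All progenitor arrays were above both cardiomyocyte arrays, and the heart Sca1 arrays lay nearest to them. The pooled difference was 3.80 ± 0.66 (SE; limma adjusted p = 0.0294), or 13.9-fold. The 3 groups differed among themselves (F-test adjusted p = 0.00396), at 5.35 ± 0.76 in heart c-kit, 1.52 ± 0.76 in heart Sca1 and 4.52 ± 0.83 in cardiac SP cells.

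In the EGF receptor family list, with 16 genes measured, Ereg was the 1 gene called (0.136% of all genes were called higher) and the median was 0.32. The ligands Hbegf, Btc and Tgfa stood at 0.43 ± 0.51, 1.30 ± 0.55 and -0.66 ± 1.00, and Nrg1 (neuregulin 1) at -3.02 ± 0.85 (adjusted p = 0.129). Egfr, the receptor of epiregulin, split the groups: it was -3.36, 4.23 and -6.33 on the heart c-kit arrays, 4.57, 5.02 and 5.02 on the heart Sca1 arrays, 5.35 and 5.30 on the cardiac SP arrays, and 0.57 ± 2.23 on the cardiomyocyte arrays (mean ± SD, n = 2). Heart Sca1 and SP cells were thus above cardiomyocytes in the receptor on every array, while the heart c-kit arrays lay below them, from -6.33 to 4.23, and on both sides of the cardiomyocyte mean. Its pooled difference was 2.22 ± 1.78 (adjusted p = 0.680).

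Ccl2, a chemokine that attracts monocytes, was 4.33, 4.78 and 5.38 in heart c-kit cells, 5.49, 5.26 and 5.37 in heart Sca1 cells, 6.67 and 6.93 in cardiac SP cells, and 1.98 and 3.83 in cardiomyocytes. Its pooled difference was 2.76 ± 0.57 (limma adjusted p = 0.0462). Of 17 measured genes of the chemokine and inflammatory list it was the 1 called (0.136% of all genes were called higher). The list's median was -0.30, which stood 1.03 above the median of all genes with medians aligned. Ccl7, a related monocyte chemokine chosen after its values were seen, had the highest value of the list, 3.32 ± 0.74 (adjusted p = 0.0646), with cardiac SP cells at 5.60 and 6.06 and an overlap between heart c-kit cells (-1.53 to 0.23) and cardiomyocytes (-2.22 and 0.51). Ccl4, a chemokine of macrophages, was at -5.86 ± 1.69 (adjusted p = 0.137), with heart Sca1 replicate 3, at 3.70, inside the range of the cardiomyocyte arrays (2.90 and 3.66). Plau (urokinase) had the largest difference of the plasminogen and matricellular list, at 1.95 ± 0.55 (adjusted p = 0.132). Of the list's 13 measured members 0 were called by limma (3 at an unadjusted p under 0.05, all higher, against 5.65% of all genes).

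**Figure D2:**
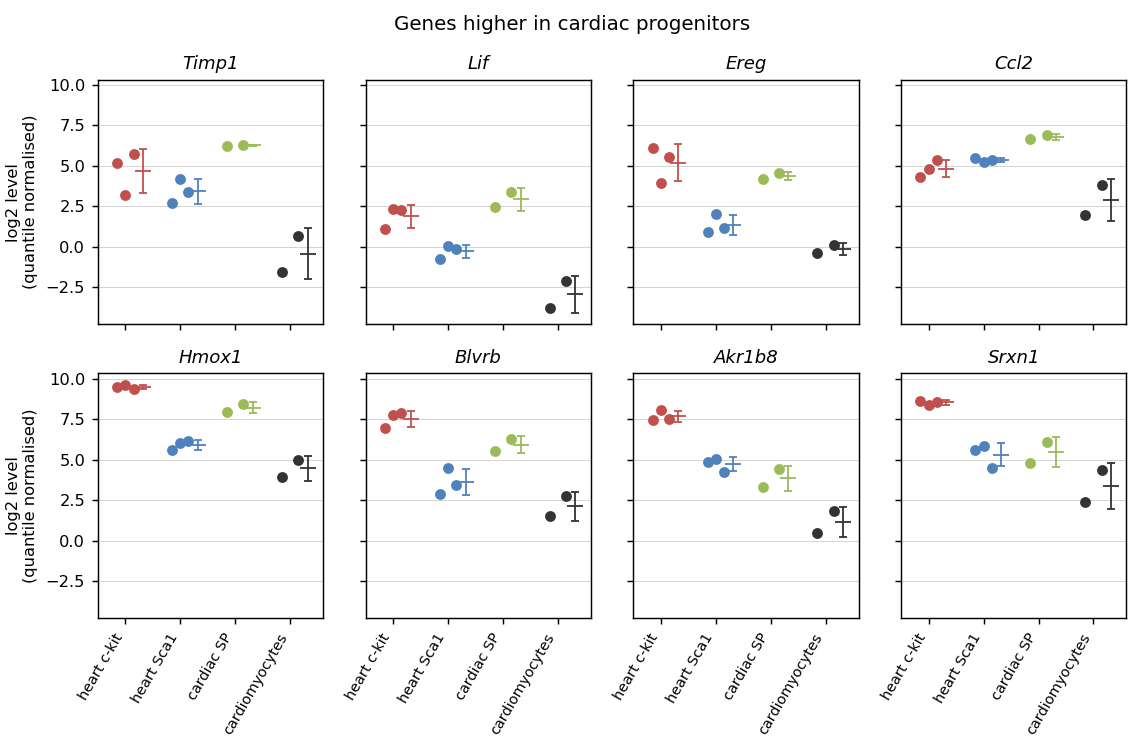
Log2 level after quantile normalisation (y axis) of 8 genes higher in progenitors, by group (x axis); points are arrays and the bar beside them is the mean ± SD. Timp1, Lif, Ereg and Ccl2 are secreted, and Hmox1, Blvrb, Akr1b8 and Srxn1 are redox or heme enzymes. In each panel all 8 progenitor points lie above both cardiomyocyte points, which was a condition of choice for genes named as the 15 highest.

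Of the NRF2 and redox list, Hmox1 (heme oxygenase, which opens the heme ring), Srxn1 (sulfiredoxin) and Akr1b8 (an aldo-keto reductase) rose. Blvrb (a biliverdin reductase), Por (the reductase that passes electrons to heme oxygenase and cytochromes P450) and Mgst1 (a microsomal glutathione transferase) rose as well; they belong to none of the lists and are described beside these genes by their known function, a placing made after their values were seen.

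Hmox1 was 9.50, 9.63 and 9.35 in heart c-kit cells, 5.58, 6.03 and 6.14 in heart Sca1 cells, 7.95 and 8.43 in cardiac SP cells, and 3.93 and 4.99 in cardiomyocytes. On 2 heart c-kit arrays the recovered intensity, 65439 and 65442, was at the scanner ceiling, so the heart c-kit level is a lower bound. The 3 progenitor groups did not overlap one another, in the order heart c-kit, cardiac SP, heart Sca1. The mean of the groups differed from cardiomyocytes by 3.41 ± 0.47 (SE; limma adjusted p = 0.0145), with the 2 saturated arrays at their measured values, so that neither the size nor the SE is exact.

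Blvrb followed the same order of groups, at 6.97, 7.72 and 7.88 in heart c-kit, 2.88, 4.49 and 3.43 in heart Sca1, 5.54 and 6.28 in cardiac SP cells, and 1.49 and 2.75 in cardiomyocytes. Its pooled difference was 3.56 ± 0.59 (limma adjusted p = 0.0236). Por showed no such order: it was 3.49, 5.79 and 4.70, then 4.37, 3.80 and 4.02, then 5.95 and 3.56 in those groups, against -0.49 and 2.14 in cardiomyocytes. Its group differences were 3.84 ± 0.89, 3.24 ± 0.89 and 3.93 ± 0.97, and the pooled value was 3.67 ± 0.77 (limma adjusted p = 0.0491), close to the threshold.

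Srxn1, whose window is printed above, was 8.64, 8.39 and 8.54 in heart c-kit, 5.60, 5.81 and 4.48 in heart Sca1, 4.78 and 6.10 in cardiac SP cells, and 2.39 and 4.38 in cardiomyocytes. Heart c-kit arrays stood apart above the other progenitors, whose lowest array, at 4.48, was just above the brighter cardiomyocyte array. Pooled, they differed from cardiomyocytes by 3.04 ± 0.60 (limma adjusted p = 0.0377). Akr1b8 was 7.41, 8.08 and 7.49 in heart c-kit, 4.88, 5.02 and 4.25 in heart Sca1, 3.30 and 4.39 in cardiac SP cells, and 0.48 and 1.80 in cardiomyocytes, a difference of 4.27 ± 0.83 (adjusted p = 0.0371). Mgst1, at 2.82 ± 0.54 (adjusted p = 0.0351), was lowest among progenitors in cardiac SP cells (3.62 and 3.35), against 4.74 to 5.59 in the other groups and 1.03 and 2.47 in cardiomyocytes.

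Of 17 measured genes in the NRF2 and redox list, Hmox1, Akr1b8 and Srxn1 were called, all higher (0.136% of all genes were called higher), and the median was 1.16 (1.30 above the median of all genes with medians aligned). At an unadjusted p under 0.05, 8 were higher (5.65% of all genes) and 0 lower (6.19%). Above cardiomyocytes in all 3 groups were 8 (22.0% of all genes). By group the medians were 2.81 in heart c-kit, 0.00 in heart Sca1 and 0.05 in cardiac SP cells, and 13 of the 17 passed the F-test among groups, against 18.1% of all genes. The list, like all others here, was drawn up with earlier results of these data known. Its shares are therefore not an independent comparison with all genes. Members outside the call, chosen after their values were seen, show the split: Gclc, a subunit of the enzyme that starts glutathione synthesis, was at 4.73 ± 0.56, -0.18 ± 0.56 and 2.05 ± 0.62 in the 3 groups, and Nqo1, a quinone reductase, at 5.40 ± 1.02, -1.25 ± 1.02 and -0.66 ± 1.11. The transcription factor gene Nfe2l2, which encodes NRF2 and was chosen likewise, was at -0.12 ± 0.45.

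The other higher genes had various functions. Pdpn, podoplanin, a surface glycoprotein of lymphatic and mesothelial cells, was 8.17, 7.70 and 8.52 in heart c-kit, 6.45, 6.64 and 6.58 in heart Sca1, 6.50 and 7.46 in cardiac SP cells, and 2.85 and 4.58 in cardiomyocytes. The gap between the lowest progenitor array and the brighter cardiomyocyte array was wide for this gene, and the difference was 3.50 ± 0.58 (limma adjusted p = 0.0236). Rbp4, the plasma carrier of retinol, was at 3.39 ± 0.58 (adjusted p = 0.0281), with cardiac SP cells highest at 4.58 and 5.49. That value is from the brightest of its 3 probes; the others gave 0.83 and -0.00, so the probes of Rbp4 disagree, and the call was lost with the mean over probes. Mcub, the inhibitory subunit of the mitochondrial calcium uniporter, was at 3.28 ± 0.62 (adjusted p = 0.0344), and Trmt10c, a component of mitochondrial RNase P, at 3.22 ± 0.65 (adjusted p = 0.0417).

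Taf9-ps was next to Timp1 in size among the called genes, at 5.01 ± 0.99 (adjusted p = 0.0377). It is a copy of Taf9, a subunit of the general transcription factor TFIID, which was itself called at 2.81 ± 0.55 (adjusted p = 0.0377), and a probe may not separate the 2, so both are uncertain. Taf9 is named after its values were seen. Svs3a, a gene of seminal vesicle secretion, was called at 3.40 ± 0.67 (adjusted p = 0.0377) from very low levels, -4.17 to -0.52 on progenitor arrays against -6.11 and -5.78, with 1 cardiomyocyte array at the fill value. Its difference was 0.19 once low values were raised to the 30th percentile of the values of all genes and arrays. The remaining 7 higher genes differed by 2.36 to 3.09 and included Gdf15, a stress-responsive cytokine of the TGF-beta family, at 2.85 ± 0.59 (adjusted p = 0.0463), chosen after its values were seen. Heart c-kit cells were at 5.55 from cardiomyocytes in Gdf15 and heart Sca1 cells at 0.51, and the arrays overlapped.

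Muscle genes were among the lowest of the comparison, beside vascular, leukocyte and other genes of similar depth described below. Several sarcomere genes fell in progenitors, as did single genes of calcium handling, channel, connexin and stress lists, with Actc1, Sln, Tcap and Nppa among them by over 6 on the log2 scale. Of the 14 measured sarcomere genes, 7 fell and 0 rose (background 0.542% of genes called lower). All 14 were below cardiomyocytes in all 3 groups (18.9% of all genes), and their median difference was -3.20 against 0.02 over all genes. With medians aligned the list's median stood 3.12 below that of all genes, with 2 members above 0.

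Actc1 encodes cardiac alpha-actin, the thin filament protein. It was 1.56, -1.12 and 1.95 in heart c-kit, 2.25, 4.16 and 4.41 in heart Sca1, -3.18 and -5.50 in cardiac SP cells (the last at the fill value), and 7.80 and 7.71 in cardiomyocytes. No array overlapped, and the order from low to high was cardiac SP, heart c-kit, heart Sca1. The pooled difference was -7.73 ± 1.38 (SE; limma adjusted p = 0.0325), the lowest value among the called genes. C130080G10Rik, a transcript whose gene neighbours Actc1 on chromosome 2, fell by 4.97 (SE 0.82; adjusted p = 0.0240), and is named here after its values were seen.

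Tnni3, cardiac troponin I, was 4.29, 3.20 and 3.25 in heart c-kit, 4.64, 5.67 and 5.66 in heart Sca1, -0.35 and 0.13 in cardiac SP cells, and 7.68 and 8.11 in cardiomyocytes. The groups were tight and did not overlap, so that the SE was the smallest among the called sarcomere genes: the difference was -4.96 ± 0.52 (limma adjusted p = 0.00174). Differences by group were -4.31 ± 0.60, -2.57 ± 0.60 and -8.00 ± 0.66. In recovered intensity Tnni3 read 13 and 25 on the cardiac SP arrays, 406 to 912 on the heart c-kit arrays and 3013 to 5730 on the heart Sca1 arrays, against 4214 and 27605 on the cardiomyocyte arrays, so in these units before normalisation the heart Sca1 arrays overlapped the dimmer cardiomyocyte array.

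Tcap, telethonin of the Z-disc, was -1.12, -0.57 and 2.36 in heart c-kit, 2.13, 3.17 and 2.72 in heart Sca1, -5.06 and -2.03 in cardiac SP cells, and 7.10 and 6.53 in cardiomyocytes. Its difference was -7.03 ± 1.07 (limma adjusted p = 0.0220). Smpx, a small protein of the costamere, was at -5.66 ± 1.01 (adjusted p = 0.0321), Tnnc1, troponin C, at -4.37 ± 0.78 (adjusted p = 0.0327), Actn2, the actinin of the Z-disc, at -3.45 ± 0.62 (adjusted p = 0.0327) and Csrp3, muscle LIM protein, at -2.90 ± 0.60 (adjusted p = 0.0462). Tnnc1 differed from Tnni3 in its pattern: cardiac SP cells were at 2.12 and 2.48, within the range of heart Sca1 cells (2.02 to 4.44), and heart c-kit replicate 1 was at 5.93. Tnnt2, troponin T, was at -2.68 ± 0.96 (adjusted p = 0.262). Mhrt, a long noncoding transcript of the cardiac myosin heavy chain locus on chromosome 14, was at -3.41 ± 0.64 (adjusted p = 0.0344), chosen after its values were seen.

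**Figure D3:**
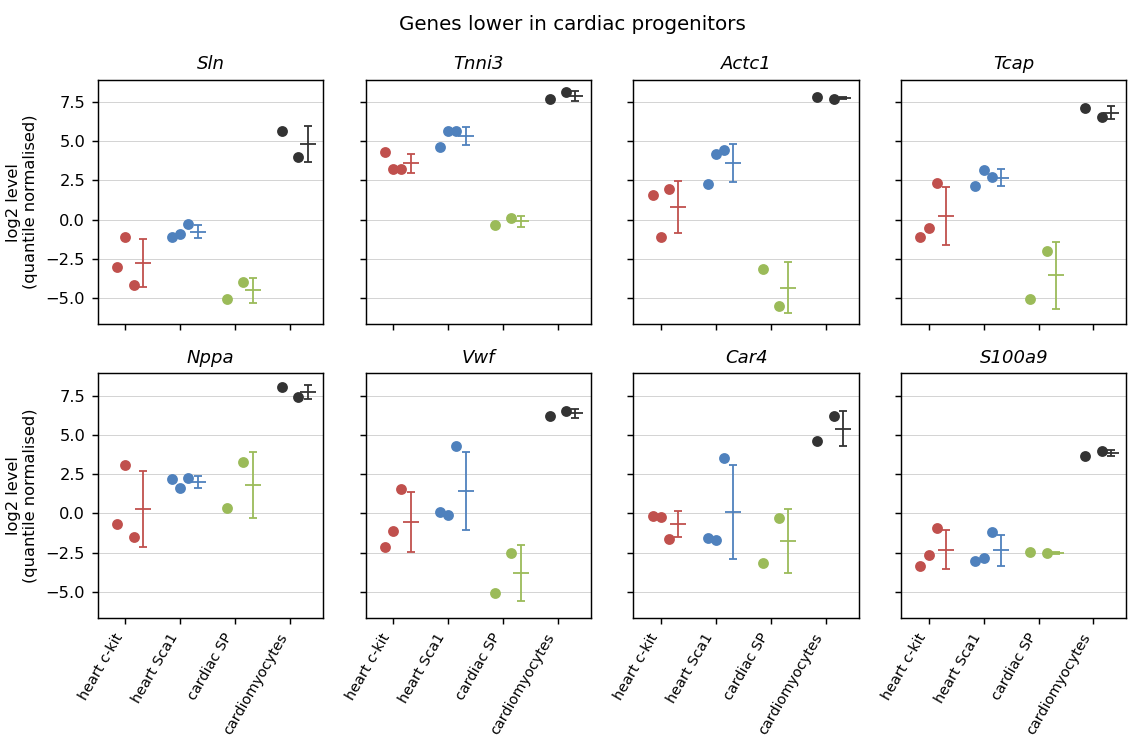
Log2 level after quantile normalisation (y axis) of 8 genes lower in progenitors, by group (x axis); points are arrays and the bar beside them is the mean ± SD. Cardiac SP arrays are lowest in Tnni3, Actc1 and Tcap, while the S100a9 levels of the 3 progenitor groups overlap. In every panel both cardiomyocyte points lie above all progenitor points, which was a condition of choice for genes named as the 15 lowest.

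Sln encodes sarcolipin, a small membrane protein that inhibits the calcium pump of the sarcoplasmic reticulum, in heart mainly in the atria. It was -3.05, -1.12 and -4.17 in heart c-kit, -1.10, -0.94 and -0.31 in heart Sca1, -5.06 and -3.97 in cardiac SP cells, and 5.62 and 4.02 in cardiomyocytes. The 2 sides were far apart, with 25, 11 and 2 intensity units in heart c-kit, 41 to 93 in heart Sca1 and 3 on the SP array above the fill value, against 1162 and 2050 in cardiomyocytes. The pooled difference was -7.51 ± 0.79 (SE; limma adjusted p = 0.00174). Readings this low give no exact fold, since 1 SP array is at the fill value. By group the differences were -7.60 ± 0.90, -5.60 ± 0.90 and -9.33 ± 0.99 in the 3 groups.

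In the calcium handling list of the sarcoplasmic reticulum Sln was the 1 called of 18 measured genes (0.542% of all genes were called lower), with a median of -1.88 (1.15 below the median of all genes with medians aligned). At an unadjusted p under 0.05 there were 9 lower and 0 higher (6.19% and 5.65% of all genes). The calcium pump itself, Atp2a2, was lower on all 8 progenitor arrays, at -3.55 ± 0.81 (adjusted p = 0.0687), and its other probes gave -1.75 and -0.56. Pln, phospholamban, the other inhibitor of the pump, was at -5.10 ± 1.53 (adjusted p = 0.158), with progenitor arrays from -1.49 to 3.97 against 6.63 and 6.40. Hrc, a calcium-binding protein of the lumen, was at -3.86 ± 0.87 (adjusted p = 0.0650), and Casq2, cardiac calsequestrin, at -2.87 ± 0.83 (adjusted p = 0.142), both below cardiomyocytes on every progenitor array. Cacna1c, the pore of the L-type calcium channel, was at -0.02 ± 0.68.

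Nppa encodes atrial natriuretic peptide. It was -0.70, 3.06 and -1.53 in heart c-kit, 2.18, 1.59 and 2.23 in heart Sca1, 0.31 and 3.28 in cardiac SP cells, and 8.07 and 7.41 in cardiomyocytes, a difference of -6.38 ± 1.03 (limma adjusted p = 0.0232). By group the values were -7.46 ± 1.19, -5.74 ± 1.19 and -5.95 ± 1.30. Ankrd1, a stress-responsive ankyrin repeat protein of the sarcomere, was at -5.85 ± 0.93 (adjusted p = 0.0232), from 1.81 and 2.16 in cardiomyocytes to the fill value on both SP arrays. These were the 2 called of 11 measured genes of the cardiac stress list (0.542% of all genes were called lower), with a median of -1.40 (1.23 below the median of all genes with medians aligned).

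Of 16 measured channel and connexin genes 2 fell (0.542% of all genes were called lower), and the median was -0.88. Kcnj5, a subunit of the acetylcholine-activated potassium channel of the atrium, was at -5.72 ± 1.14 (adjusted p = 0.0392). Gja5, connexin 40 of the atria and arteries, was 3.00, 0.54 and -0.63 in heart c-kit, 0.17, 4.38 and 3.03 in heart Sca1, 1.01 and 1.15 in cardiac SP cells, and 6.43 and 6.37 in cardiomyocytes, at -4.87 ± 0.99 (adjusted p = 0.0431). Gja1, connexin 43, which couples ventricular muscle cells, was at -0.26 ± 0.46. The labels do not say from which chambers the cells came.

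In the list of heart muscle energy supply limma called 0 of 17 genes (0.678% of all genes were called). At an unadjusted p under 0.05, 8 were lower (6.19% of all genes) and 0 higher (5.65%). The list's median was -1.15, which was 0.37 below the median of all genes with medians aligned. Ckmt2, mitochondrial creatine kinase, was at -5.10 ± 1.37 (adjusted p = 0.112) and Cox8b, a subunit of cytochrome oxidase, at -4.58 ± 1.50 (adjusted p = 0.206). Chchd10, a mitochondrial protein outside that list, was called at -5.88 ± 0.95 (adjusted p = 0.0232), with heart c-kit cells lowest (-3.87, -6.30 and -1.27) and cardiomyocytes at 5.10 and 4.71. Of 15 measured cardiac transcription factors 0 were called by limma (1 at an unadjusted p under 0.05, lower, against 6.19% of all genes). Their median was -0.49, which turned to 0.10 above the median of all genes with medians aligned. Mef2c, the largest of them, was at -2.10 ± 0.56 (adjusted p = 0.108) and at 0.05 with medians aligned.

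**Figure D4:**
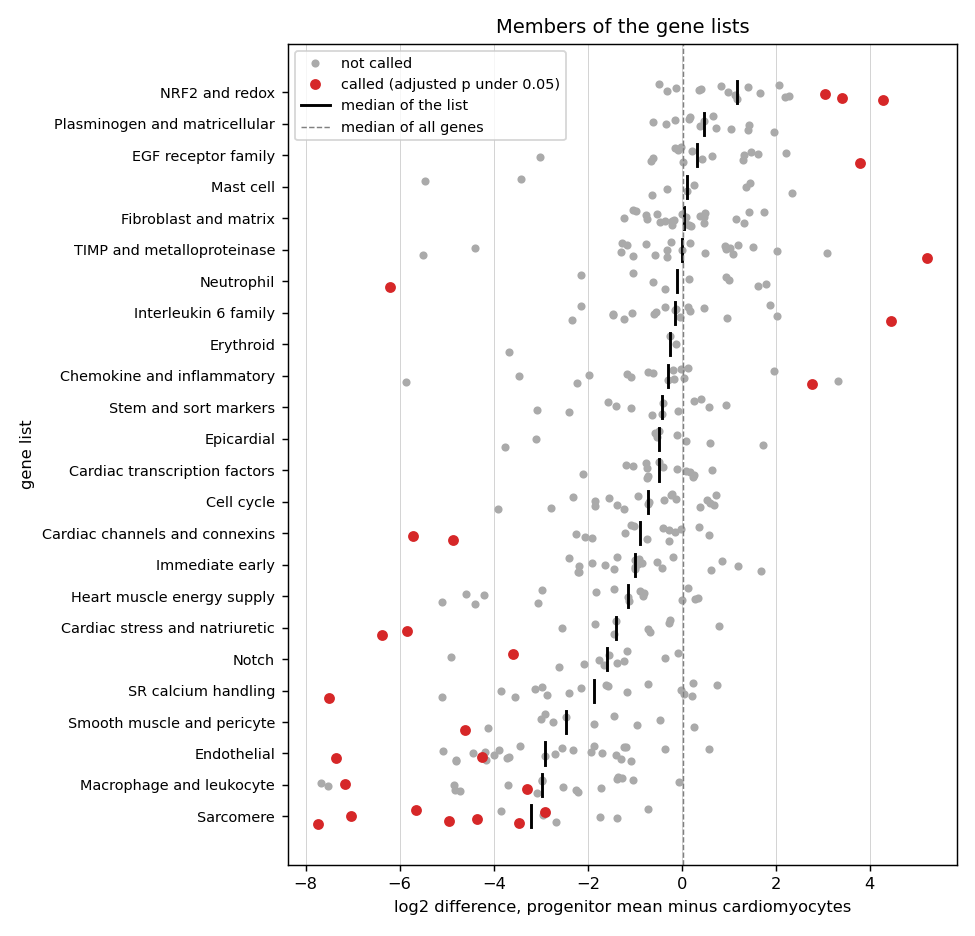
Log2 difference of the progenitor mean from cardiomyocytes (x axis) for each measured member of the gene lists (y axis); red points are called at an adjusted p under 0.05, grey points are not, black bars mark list medians and the dashed line the median of all genes. Of the red points, 7 are sarcomere genes and 3 are NRF2 and redox genes, and the secreted signals Timp1, Lif, Ereg and Ccl2 each stand alone in their lists.

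Endothelial genes stood lower in progenitors, beside the high endothelial marker mean of the cardiomyocyte arrays given above. Of 27 measured, 2 fell (0.542% of all genes) and 0 rose, and 20 were lower at an unadjusted p under 0.05 (6.19% of all genes). Below cardiomyocytes in all 3 groups were 21 (18.9% of all genes). The median was -2.92 (2.27 below the median of all genes with medians aligned). Vwf, von Willebrand factor, was -2.13, -1.12 and 1.55 in heart c-kit, 0.07, -0.13 and 4.31 in heart Sca1, -5.06 and -2.56 in cardiac SP cells, and 6.18 and 6.55 in cardiomyocytes. The 4.31 is heart Sca1 replicate 3, the array with the high endothelial mean, and no array overlapped. The difference was -7.35 ± 1.12 (SE; limma adjusted p = 0.0220), and -7.83 ± 0.88 without that array (adjusted p = 0.00157). Ptprb, the endothelial phosphatase that opposes the Tie2 receptor, was at -4.25 ± 0.83 (adjusted p = 0.0377). Pecam1, the gene of CD31, did not pass, at -1.08 ± 1.09 (adjusted p = 0.754), with heart c-kit cells at 4.59, 7.57 and 5.90 and cardiomyocytes at 4.89 and 6.78. Its other probes gave -2.02 ± 1.05 and -2.40 ± 0.75.

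Further genes among the 15 lowest were highest, among heart Sca1 arrays, on the same replicate 3. Car4, a membrane carbonic anhydrase of capillaries, was -0.19, -0.22 and -1.64 in heart c-kit, -1.56, -1.73 and 3.54 in heart Sca1, -3.18 and -0.31 in cardiac SP cells, and 4.61 and 6.18 in cardiomyocytes (difference -6.18 ± 1.16, adjusted p = 0.0342). Lrg1, a secreted leucine-rich glycoprotein, was at -6.99 ± 1.33 (adjusted p = 0.0344), with heart Sca1 arrays at -3.05, -3.05 and 1.73. Ptprr, a tyrosine phosphatase whose gene lies next to Ptprb on chromosome 10, was at -6.87 ± 1.29 (adjusted p = 0.0342), with heart Sca1 arrays at -4.22, -0.97 and 3.11. Lsr, a lipoprotein receptor of cell corners, and Chl1, an adhesion molecule of the L1 family, were at -6.41 ± 1.10 and -6.19 ± 1.06 (adjusted p = 0.0282 and 0.0281), with -3.19 by the other, dimmer probe of Lsr. In these 5 genes replicate 3 was the highest of the 3 heart Sca1 arrays. It was also the highest in Actc1, Sln, Nppa, Chchd10 and S100a9, which are outside the endothelial list, but not in Tcap. Rasgrp2, an exchange factor for Rap1 in platelets and endothelium, was at -7.23 ± 1.07 (adjusted p = 0.0201), with even heart Sca1 levels of 1.75, 0.71 and 1.50. Lmo7, a LIM domain protein of cell junctions, was at -6.01 ± 1.27 (adjusted p = 0.0497).

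Leukocyte genes stood lower too, beside the macrophage marker mean of the cardiomyocyte arrays. Of 20 measured macrophage and leukocyte genes 2 fell (0.542% of all genes), 16 were lower at an unadjusted p under 0.05 (6.19%), all 20 had a pooled difference below 0 (14 with medians aligned), and the median was -2.97. Mrc1, the mannose receptor of resident macrophages, was -0.81, -3.24 and -3.71 in heart c-kit, -1.60, -4.02 and 2.55 in heart Sca1, -5.06 and -2.56 in cardiac SP cells, and 4.14 and 5.22 in cardiomyocytes (difference -7.15 ± 1.25, limma adjusted p = 0.0294). Laptm5, a lysosomal protein of blood cells, differed between groups in sign: it was 6.58, 5.67 and 6.03 in heart c-kit, 1.57, 3.55 and 4.84 in heart Sca1, -2.46 and -3.50 in cardiac SP cells, and 5.00 and 5.88 in cardiomyocytes (difference -3.29 ± 0.69, adjusted p = 0.0468). Ptprc, the gene of CD45, followed the same order, with heart c-kit cells at 2.88, 5.17 and 3.99 and cardiomyocytes at 4.30 and 4.22, and did not pass (-3.09 ± 0.91, adjusted p = 0.149; -0.03 by its other, dimmer probe).

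S100a9, a calcium-binding protein of neutrophils, was the 1 called of 10 neutrophil genes (0.542% of all genes were called lower). It was -3.36, -2.64 and -0.92 in heart c-kit, -3.05, -2.82 and -1.20 in heart Sca1, -2.46 and -2.56 in cardiac SP cells, and 3.68 and 3.96 in cardiomyocytes. The 3 progenitor groups stood at the same distance, -6.13 ± 0.87, -6.18 ± 0.87 and -6.33 ± 0.96, and the pooled difference was -6.21 ± 0.76 (limma adjusted p = 0.00573). S100a8, its partner in the calprotectin dimer, was at -0.36 ± 0.98 (adjusted p = 0.926), with -3.50 and -3.23 on the cardiomyocyte arrays. The list's median was -0.11, and the mean of its 10 genes was -1.21 and -0.85 on cardiomyocyte arrays against -2.62 to -0.34 on progenitor arrays.

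Of 11 measured smooth muscle and pericyte genes 1 fell (0.542% of all genes), with a median of -2.46 (1.16 below the median of all genes with medians aligned). Acta2, smooth muscle actin, was 1.54, -1.82 and -1.40 in heart c-kit, 4.24, 4.18 and 5.52 in heart Sca1, 6.04 and 5.27 in cardiac SP cells, and 7.98 and 7.75 in cardiomyocytes, at -4.62 ± 0.85 (adjusted p = 0.0342; -4.18 by its other probe). Fibroblast and matrix genes gave no call by limma in either direction (1 of 24 higher at an unadjusted p under 0.05, against 5.65% of all genes). Their median was 0.04 and stood 1.25 above that of all genes with medians aligned. By the F-test 20 of the 24 differed among the 3 progenitor groups (18.1% of all genes). Their group medians were -3.01 in heart c-kit, 1.44 in heart Sca1 and 1.74 in cardiac SP cells. In the endothelial, macrophage and smooth muscle genes, and in genes that moved with them, the part that other cells on the cardiomyocyte arrays play was not tested.

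The last question was how alike the 3 progenitor groups were in the genes that set them apart from cardiomyocytes. They often differed in size: 78 of the 120 called genes, 14 higher and 64 lower, also passed the F-test among the 3 groups at an adjusted p under 0.05, a test that 3210 of all genes passed (18.1%). Both tests use the same estimate of spread for each gene, and a call favours genes with a small spread. The share among called genes is therefore raised in part by the selection, and its distance from 18.1% cannot be read as a result. A shift of over 2 on the log2 scale in each of the 3 groups was seen in 10 of the 24 higher and 58 of the 96 lower genes. Among the lower genes the group farthest from cardiomyocytes was cardiac SP in 64, heart c-kit in 27 and heart Sca1 in 5, and heart Sca1 was the nearest group in 49. Among the higher genes the farthest was heart c-kit in 12, cardiac SP in 12 and heart Sca1 in 0, and heart Sca1 was the nearest in 18. The median difference of the lower genes was -4.22, -3.18 and -6.41 in heart c-kit, heart Sca1 and cardiac SP cells, and that of the higher genes was 4.10, 2.33 and 3.76. These group differences share the 2 cardiomyocyte arrays, and 37 of the lower genes held at least 1 array at the fill value, as did 1 of the higher genes.

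**Figure D5:**
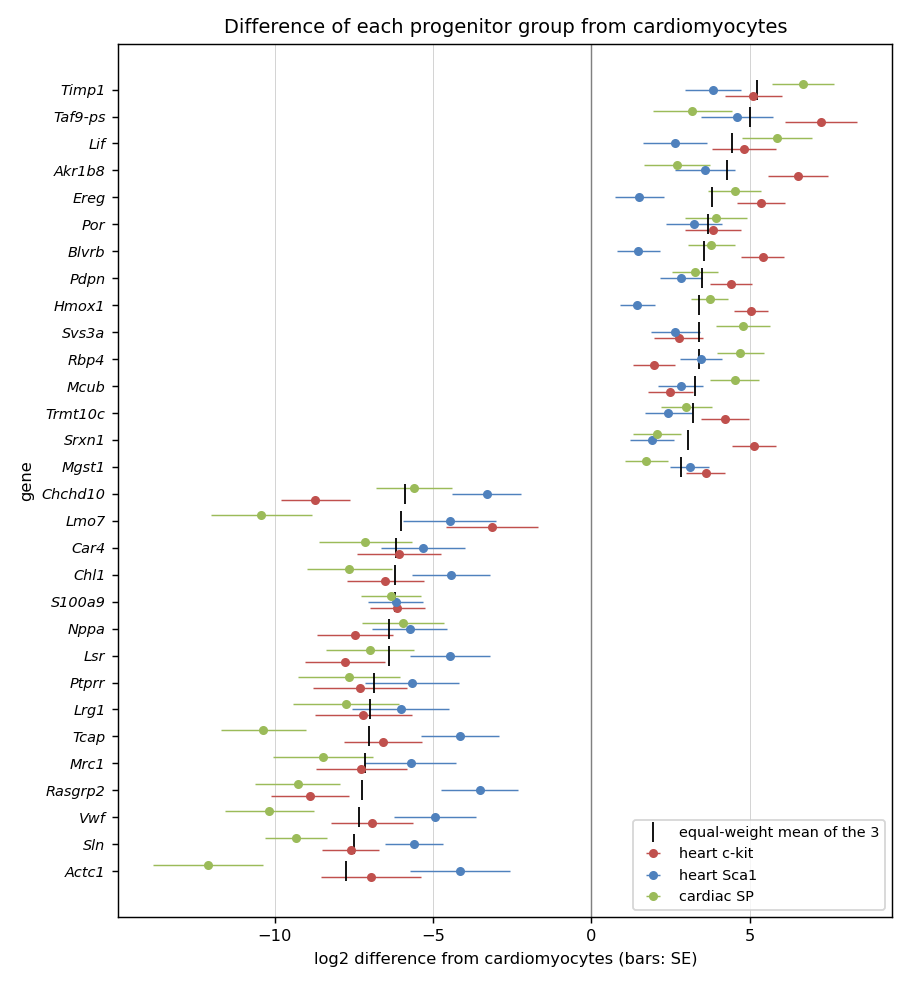
Log2 difference from cardiomyocytes ± SE (x axis) in each progenitor group for the 15 highest and 15 lowest called genes whose arrays did not overlap (y axis); the black tick is the equal-weight mean of the 3 groups. Heart Sca1 cells lie nearest to 0 in 23 of the 30 genes, S100a9 runs from -6.13 to -6.33, and Actc1 runs from -4.15 in heart Sca1 to -12.09 in cardiac SP cells.

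The called genes with the strongest differences among groups (smallest F-test p) had pooled values set by 1 or 2 of the groups. Klhl13, an adaptor of a ubiquitin ligase, was low in 1 group: it stood at -6.16, -5.10 and -6.33 in heart c-kit, 6.20, 5.62 and 5.87 in heart Sca1, 5.16 and 5.15 in cardiac SP cells, and 4.58 and 4.51 in cardiomyocytes. Its pooled value of -2.81 ± 0.51 (limma adjusted p = 0.0327) comes from heart c-kit cells alone, at -10.41 ± 0.59, and became 0.98 without that group. Pik3cb, the beta catalytic subunit of PI 3-kinase, was the reverse case, at 5.96, 6.12 and 6.26 in heart c-kit, 3.59, 2.36 and 5.07 in heart Sca1, the fill value on both cardiac SP arrays, and 6.01 and 6.46 in cardiomyocytes (pooled -4.73 ± 0.58, adjusted p = 0.00573). Cardiac SP arrays were at or near the fill value also in Dtx3l, a ubiquitin ligase (-5.06 and -6.33, against 1.65 to 3.33 on the other 8 arrays), in Cmc2, a mitochondrial assembly factor (both at the fill value, against 1.22 to 3.91), and in Mfng, a glycosyltransferase of the Notch pathway (both at the fill value, with heart c-kit cells at 3.32 to 6.16). Hnmt, histamine methyltransferase, was low in both heart c-kit (-2.84, -2.95 and -2.83) and cardiac SP cells (-1.56 and -1.79), but 3.81 to 4.08 in heart Sca1 cells and 2.64 and 3.60 in cardiomyocytes.

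In total 8 called genes had mixed signs, all lower in the pooled test: Dtx3l, Klhl13, Laptm5, Hnmt, Tbkbp1, Mfng, St8sia4 and Ctla2a. The sign rule runs close to 0 for a few more, here chosen after their values were seen. Srgn and Pik3cb were just inside it, with heart c-kit differences of -0.11 and -0.12, and Tbkbp1 just outside with 0.07.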

How the data were processed

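Cy5-labelled cDNA, amplified with the WT-Ovation Pico kit per the labels' protocols, was hybridised in 1 colour to 16 arrays. The authors deposited log2 values for 26423 probes, with array means within 0.001 of 0 on 15 arrays. For background correction and software, the answer is not given in the sources used here. Undoing the log2 and a constant per array gave intensities that were whole numbers on all arrays, to a tolerance of 0.005 for values under 200 and leaving out the fill value.

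The deposited log2 values were quantile normalised over all 16 arrays, and the probe with the highest mean stood for each of 17710 genes (20377 probes had 1 symbol, 6046 none). limma 3.58.1 (R 4.3.3) fitted 6 group means with empirical Bayes moderation (10 residual and 3.81 prior degrees of freedom). The pooled contrast was the equal-weight mean of 3 groups minus cardiomyocytes. A moderated F-test compared the 3 groups. Values after ± are SE unless named SD. The number of arrays limits the precision. Near the scanner ceiling means over 95% of 65535, the top of a 16-bit scale; array maxima were 65436 to 65471. The script was tested on simulated data.

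Named genes were Timp1, Lif, Ereg and Sln, the 15 highest and 15 lowest called genes with like sign in all groups, no overlap and no side wholly at the fill value, up to 4 called members of each of 24 lists (or up to 2 largest as values), the 6 called genes with the smallest F-test p, and marker genes as values. Other members of the TIMP, interleukin 6, EGF receptor and calcium handling lists are given as values, and genes outside the rule are marked in the text. Members, lists and tests were chosen with earlier results of these data known. Alternatives were other scalings, low-value filters, probe averaging, moderation, array weights, a replicate block, fewer arrays, and leaving out each array or group. The test of paired replicate numbers is in the closing section.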

Additional observations from a re-analysis of the deposited data

Results flagged for a closer look

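The values in this section are limma F-test p-values, adjusted over all 17710 genes, for a difference among heart c-kit, heart Sca1 and cardiac SP cells in a named gene. Of 73 named genes 33 passed, and 25 of them were also called in the pooled comparison. Since 6 genes were named for the smallest p in this test, the share is not set against that of all genes. No group has 4 arrays, so single arrays were not tested as outliers.

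Among genes higher in progenitors these were Ereg (0.00396), Hmox1 (0.000694), Blvrb (0.00181), Akr1b8 (0.0206), Srxn1 (0.00447), Rbp4 (0.0290) and Taf9-ps (0.0454). Heart c-kit cells were farthest from cardiomyocytes in Ereg, Hmox1, Blvrb, Akr1b8 and Srxn1, and cardiac SP cells in Rbp4.

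In muscle genes the groups differed in Sln (0.0274), Tnni3 (0.000156), Actc1 (0.0100), Tcap (0.00966), Smpx (0.0181), Kcnj5 (0.0496), Ckmt2 (0.0473) and Mef2c (0.00261). Cardiac SP cells were lowest in Sln, Tnni3, Actc1 and Tcap.

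In vascular, leukocyte and stromal genes they differed in Vwf (0.0320), Rasgrp2 (0.00506), Acta2 (0.000858), Ptprc (0.00797), Laptm5 (2.22e-05), Mfng (2.47e-05), Wt1 (0.0407), Fap (0.0157), Loxl1 (0.000415) and Spp1 (2.58e-06). The remaining genes were Klhl13 (7.71e-08), Pik3cb (1.42e-06), Dtx3l (1.86e-06), Hnmt (1.9e-06), Cmc2 (1.49e-05), Fosb (2.47e-05), Chchd10 (0.00539) and Lmo7 (0.00867). Fosb was near the scanner ceiling on 5 progenitor arrays and 1 cardiomyocyte array.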

How the results depend on the processing

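The pooled comparison called 120 genes. It called 0 with medians aligned, 2 with deposited values unchanged and 228 with the lowest 30% of genes left out. A single cutoff, the 30th percentile over all genes and arrays, put in place of every smaller value gave 520. Trend and robust moderation gave 196, and array weights per group gave 4. With only the 10 arrays compared the count was 0, and with equal weight per array it was 74. Leaving out 1 array gave 1 to 240. Averaging probes gave 132. Chosen after the data were seen, a progenitor mean without the heart c-kit, heart Sca1 or cardiac SP group gave 288, 392 and 59. With the replicate block it called 38, of which 35 were among the 120. Over 13 same-numbered pairs the correlation of deviations from group means ran from -0.10 to 0.40, and over 24 differently numbered pairs from -0.40 to 0.32. With so few arrays per group these deviations depend on one another, so the check cannot decide whether replicate numbers pair the arrays. Genes differing among the 3 groups numbered 3210, with 1518 under array weights and 1220 with only the 10 arrays. Genes with like sign in all groups numbered 7247 of 17710, and 4767 of the 12397 genes tested when the lowest 30% were left out. Over all 17710 genes they numbered 5666 with low values raised and 8091 with medians aligned. The sign changed in Mef2c (0.048 with medians aligned), in Slc4a1 (0.15 with low values raised, 0.015 without the heart c-kit group, -1.12 to 0.60 leaving out 1 array), in Retnlg (-4.33 to 0.030 leaving out 1 array), and without the heart c-kit group in Fosb (0.11), Klhl13 (0.98) and Spp1 (-0.95). The causes were not tested, apart from fewer arrays or genes where a setting removes them. Of the 45 called named genes, Klhl13 was the 1 that changed sign in the settings run. Signals near the fill value limit the lower side, above all on the cardiac SP arrays.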

Other observations

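Gene lists not described above gave few calls. Of 12 measured Notch genes 1 fell (Mfng), against 0.542% of all genes. At an unadjusted p under 0.05, 4 were lower (6.19% of all genes) and 0 higher (5.65%), and the median difference was -1.60. Of 22 immediate early genes limma called 0 (2 higher and 5 lower at an unadjusted p under 0.05, against 5.65% and 6.19% of all genes). Their median was -0.99 and turned to 0.52 above the median of all genes with medians aligned. By the F-test 15 of them differed among the progenitor groups (18.1% of all genes). Fosb, an AP-1 subunit, had a difference of -6.82 in heart c-kit, 0.07 in Sca1 and 0.15 in SP cells.

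Of 20 cell cycle genes limma called 0 (3 lower at an unadjusted p under 0.05, against 6.19% of all genes), and the median was -0.72. Mki67, the proliferation marker Ki-67, was lower on all 8 progenitor arrays, at -3.91 ± 0.92 (limma adjusted p = 0.0731). Of 13 stem and sort markers limma called 0 (3 lower at an unadjusted p under 0.05, against 6.19% of all genes). Kit, the gene by which heart c-kit cells were sorted, had a difference of 2.41 there, of -2.83 in Sca1 and of -1.50 in SP cells, with a pooled value of -0.64 ± 0.85. Limma also called 0 of 9 mast cell, 9 epicardial and 3 erythroid genes (1 higher and 1 lower, 2 lower, and 1 lower at an unadjusted p under 0.05). The shares of all genes at that p were 5.65% higher and 6.19% lower. Hdc, the histamine-forming enzyme, was at -5.45 ± 1.24 (limma adjusted p = 0.0678), and Wt1, an epicardial transcription factor, was below both cardiomyocyte arrays on all 8 progenitor arrays, at -3.76 ± 1.07 (limma adjusted p = 0.132).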
